A study of Mus musculus with 14 samples.

Results

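The cytochrome P450 enzymes of families 1 to 3 are the main drug- and steroid-oxidising P450 enzymes of the liver, and their transcripts were compared between sleep-deprived and control mice. Members were the probe sets that carried exactly 1 gene symbol of the form Cyp1, Cyp2 or Cyp3 followed by a subfamily letter and a number. Cyp2b9, Cyp2b10, Cyp2b13 and Cyp2c55 were not among them, and a gene with several probe sets was represented by the one with the highest mean over all 14 arrays. This gave 53 genes of the 22180 measured, in 16 subfamilies. The livers came from male C57BL/6J mice, an inbred strain with no engineered allele named, of which 7 had been deprived of sleep once, for 6 h, and 7 served as controls. The submitters' broader question was how such a disturbance acts on glucose tolerance and liver fat. The design text mentions gentle handling, cage changing and a water platform as methods, and which of them was used for these animals is not given in the sources used here. Age, feeding state and hour of killing are likewise not given. Each liver carries its own number and was treated as 1 mouse, but separate animals are not stated, so p-values measure the spread between these samples.

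P450 enzymes sit in the membrane of the endoplasmic reticulum, hold a heme group and insert an oxygen atom from molecular oxygen into lipophilic substrates, with electrons delivered by P450 reductase and by cytochrome b5. In hepatocytes, members of families 1 to 3 oxidise drugs, plant compounds, steroids, bile acids and polyunsaturated fatty acids, and many are most abundant around the central vein. Their transcription is known to be set by ligand-activated receptors (AHR for Cyp1a, CAR and PXR for Cyp2b, Cyp2c and Cyp3a), by the pulses of growth hormone that make some of them sex-specific, and by clock-controlled factors of the PAR bZIP group.

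Values are log2 levels per probe set. Probe sets differ in how they bind, and levels of different genes are not set against each other. Hepatocyte markers were high. The log2 of their summed signal, in which the brightest genes weigh most, lay between 15.49 and 15.56 in controls. After sleep deprivation it lay between 15.50 and 15.56. Albumin (Alb) differed by 0.0063 ± 0.025, while the markers Apoa1 and Cps1 differed by 0.12 and 0.11. As in any bulk tissue, fewer cells of a type and less RNA per cell cannot be told apart. A gene is called dim here when its mean over all arrays was below 3.99, the median over genes. By this measure 32 of the 53 members were brighter and 21 were dim.

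Among the 53 members, 7 were lower and 1 was higher after sleep deprivation (limma, Benjamini-Hochberg adjusted p under 0.05 over all 22180 genes). That is 13.2% of the members lower, against 4.62% of all genes, and 1.89% higher, against 3.88%. Near-identical copies, such as Cyp2a4 and Cyp2a5 among the lower ones, count separately here and may share probes. In either direction, 8 members passed, and 8.5% of all genes did. Of the 32 brighter members, 6 were lower (18.8%, against 8.71% of the brighter genes overall) and 1 was higher, against 7.33%. Cyp2a4, Cyp2a5, Cyp2g1 and Cyp2u1 fell by 0.75 to 0.88 on the log2 scale, which is 1.68- to 1.85-fold. The falls of Cyp2c54, Cyp2c23 and Cyp2d22 were smaller, at 1.13- to 1.35-fold, and Cyp2c40 rose by 1.36-fold. The other 45 members, Cyp1a2, Cyp2e1, Cyp2c29 and Cyp3a11 among them, did not pass the test, although 16 of the 53 had an unadjusted p under 0.05.

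The median difference of the members was -0.047, and -0.094 over the brighter ones, beside -0.0048 over all genes. Negative differences were found in 35 members (66.0%), against 51.6% of all genes. For 34 members the difference was smaller than 0.15 in either direction. In 4 members every sleep-deprived mouse lay below every control mouse, where 1.79% of all genes showed this, and no member had the opposite separation, which 1.34% of all genes showed. Leaving out control mouse 12 raised the number of separated members from 4 to 7. The number of members called higher was 2 without control mouse 8, control mouse 14 or sleep-deprived mouse 10, and 0 with the sample number as a covariate.

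**Figure D1:**
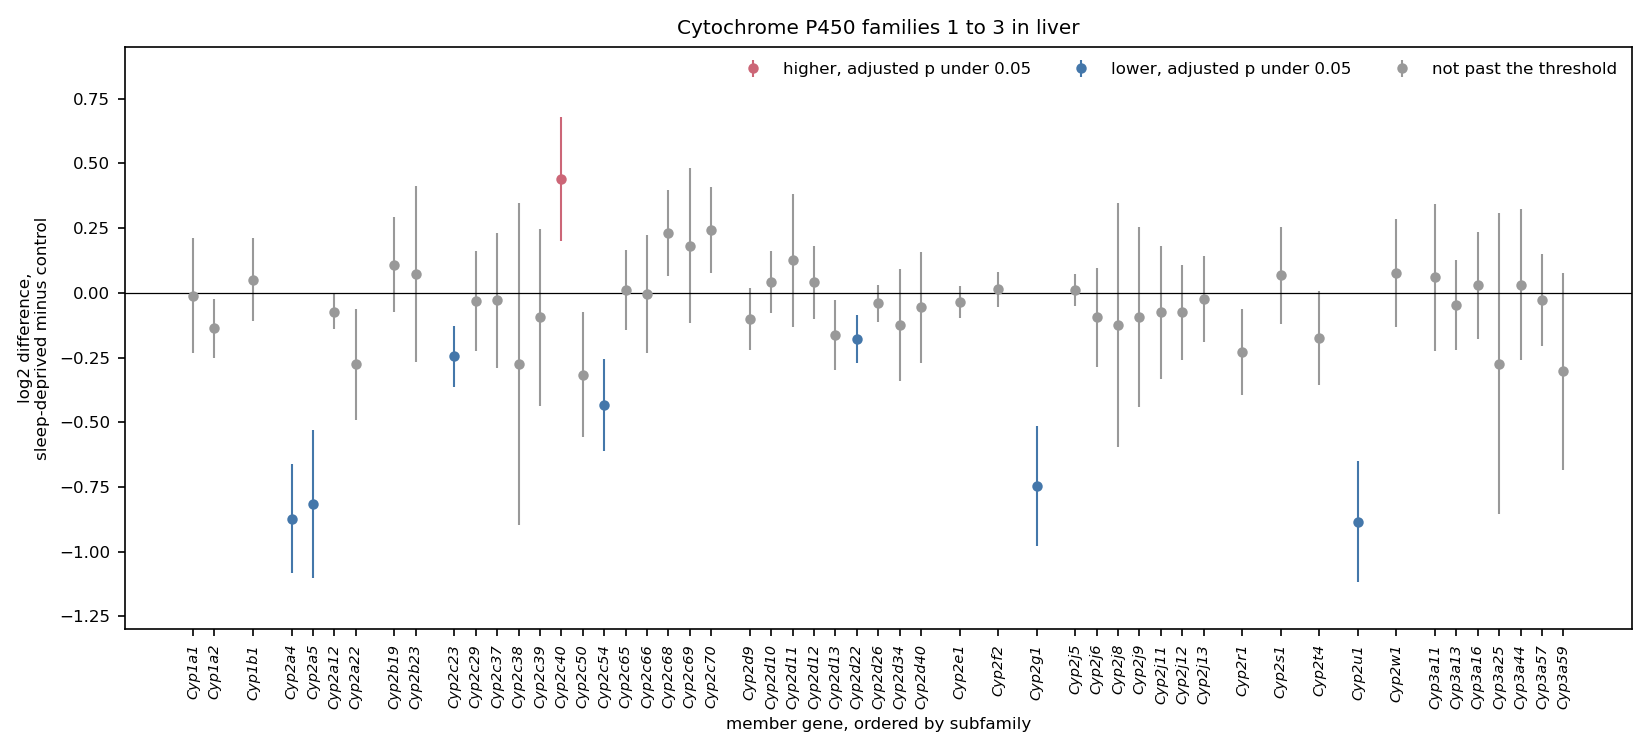
Log2 difference, sleep-deprived minus control, on the vertical axis for each of the 53 members, ordered by subfamily on the horizontal axis; points are limma estimates and bars their 95% intervals (n = 7 mice per group). The 7 members that fell are blue and the 1 that rose is red, and Cyp2a4, Cyp2a5, Cyp2g1 and Cyp2u1 lie farthest below 0.

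The 4 members of the Cyp2a subfamily were Cyp2a4, a testosterone hydroxylase more abundant in females, Cyp2a5, a coumarin hydroxylase that also oxidises nicotine and bilirubin, and Cyp2a12 and Cyp2a22. Cyp2a4 and Cyp2a5 fell and the others did not pass, and the median difference of the 4 was -0.55. Cyp2a4 and Cyp2a5 are near-identical copies, so the promoter bases that stand before their start sites are printed here to show how alike the genes are. The sequences are RefSeq's on build GRCm38.p6, read 5′ to 3′ on the gene's strand and ending at the base before the start site, and capitals mark the bases at which the pair differ. Cyp2a4 is at chr7:26306942-26307191 and Cyp2a5 at chr7:26835089-26835338, both on the plus strand.
Cyp2a4: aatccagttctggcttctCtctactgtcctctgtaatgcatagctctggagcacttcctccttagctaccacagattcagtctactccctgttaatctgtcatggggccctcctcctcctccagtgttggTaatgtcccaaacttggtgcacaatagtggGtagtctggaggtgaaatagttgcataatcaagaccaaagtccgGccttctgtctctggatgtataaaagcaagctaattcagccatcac
Cyp2a5: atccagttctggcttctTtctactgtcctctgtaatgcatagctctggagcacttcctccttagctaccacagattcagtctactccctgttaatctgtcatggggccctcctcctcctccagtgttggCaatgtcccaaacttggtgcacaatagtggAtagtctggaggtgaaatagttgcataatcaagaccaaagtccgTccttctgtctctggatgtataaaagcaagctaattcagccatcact
Over the 249 aligned bases 245 were identical (98.4%). Probes can be shared by such copies, and how the array separates them is not given in the sources used here, so the division of signal between Cyp2a4 and Cyp2a5 is uncertain.

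The Cyp2a4 probe set (17475399) read 7.58, 7.99 and 8.14 in controls (lowest, median and highest of 7 mice), and 6.75, 6.98 and 7.34 after sleep deprivation. The groups did not overlap. Its mean fell from 7.95 ± 0.20 to 7.08 ± 0.24 (SD, n = 7 each), a log2 difference of -0.87 ± 0.10 (moderated SE) with a 95% interval from -1.08 to -0.66, or 1.83-fold lower (limma, adjusted p = 1.05e-05). For Cyp2a5 (probe set 17475469) the lowest, median and highest control values were 4.60, 4.75 and 5.60, and those of the sleep-deprived mice were 3.77, 4.18 and 4.39. These groups did not overlap either, and control mouse 11 stood above the other controls. The log2 difference was -0.82 ± 0.14, with an interval from -1.10 to -0.53, or 1.76-fold lower (limma, adjusted p = 0.000524).

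Cyp2a12, a steroid hydroxylase that is abundant in liver, moved far less. Its controls ranged from 12.17 to 12.35 with a median of 12.23, and the sleep-deprived mice from 12.11 to 12.24 with a median of 12.15. The ranges overlapped, and the log2 difference of -0.072 ± 0.033 did not pass (limma, adjusted p = 0.223). Cyp2a22, whose promoter is 88.8% identical to that of Cyp2a12, differed by -0.28 ± 0.10 (limma, adjusted p = 0.116). Without control mouse 12 its difference was -0.35 and passed (limma, adjusted p = 0.0249). In no other fit that left out a mouse did Cyp2a22 pass.

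Whether Cyp2a members changed unequally was tested on the difference of their log2 values within each mouse. This was done for 9 pairs of members in all, with exact two-sided permutation tests over the 3432 splits of 14 mice and adjustment over the 9 pairs. Cyp2a5 minus Cyp2a12 was lower after sleep deprivation by -0.74 ± 0.16 (exact permutation p = 0.000583, the smallest these groups can give; adjusted p = 0.00524). Cyp2a12 is one of the brightest probe sets of the members, and compression at the top of the array's range was not measured. The pair therefore shows unequal change in signal, and unequal change in transcript is not settled. Cyp2a5 minus Cyp2a4 differed by 0.057 ± 0.19 (exact permutation p = 0.760). Shared probes would draw this difference toward 0, so the test cannot decide whether these near-identical copies changed unequally. The other 7 pairs did not pass, and the lowest adjusted p among them was 0.336.

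Cyp2g1, a P450 best known from the olfactory mucosa, lies between the Cyp2a genes on chromosome 7. Its probe set (17475458) was dim, at 3.58, 3.68 and 4.32 in controls (lowest, median, highest) and 2.76, 3.08 and 3.27 in sleep-deprived mice. The groups did not overlap. The log2 difference was -0.75 ± 0.11, or 1.68-fold lower (limma, adjusted p = 0.000153). A value this close to the floor of the array gives no measure of how much transcript the liver holds.

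**Figure D2:**
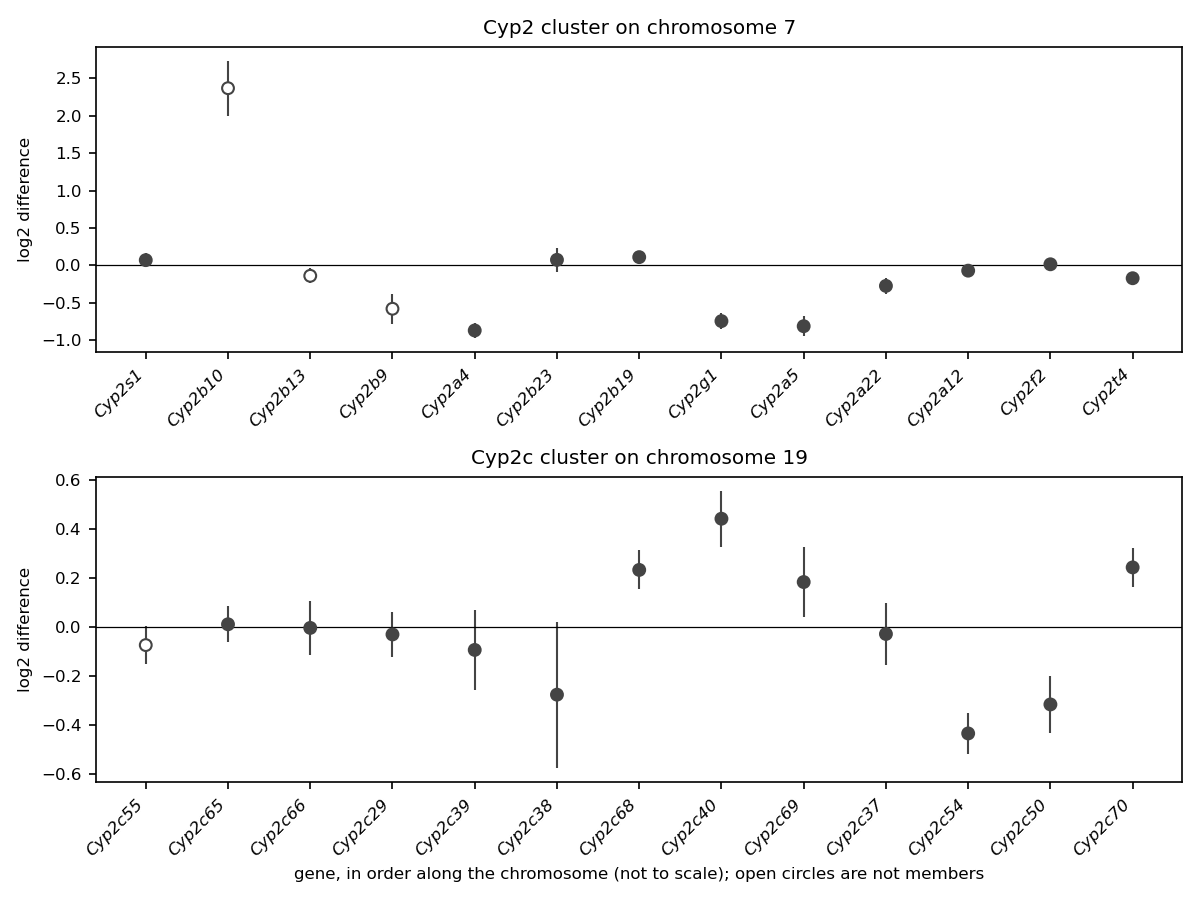
Log2 difference, sleep-deprived minus control, ± moderated SE (vertical axis) for genes in their order along the Cyp2 cluster of chromosome 7 and the Cyp2c cluster of chromosome 19 (horizontal axis, rank only); open circles are P450 genes that are not members. On chromosome 7, Cyp2b10 stands at 2.37 beside Cyp2a4, Cyp2g1 and Cyp2a5 at -0.75 to -0.87, while Cyp2a12, Cyp2f2 and Cyp2s1 lie near 0.

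In gene order the chromosome 7 cluster reads Cyp2s1, Cyp2b10, Cyp2b13, Cyp2b9, Cyp2a4, Cyp2b23, Cyp2b19, Cyp2g1, Cyp2a5, Cyp2a22, Cyp2a12, Cyp2f2 and Cyp2t4. The members that fell are thus interleaved with Cyp2b23 and Cyp2b19, both dim and not called, at differences of 0.072 and 0.11. Cyp2b10, the classical CAR target and not a member, rose in the same stretch: its controls ranged from 3.52 to 5.17 and the sleep-deprived mice from 4.87 to 7.64 (2.37 ± 0.37; limma, adjusted p = 0.000241). Cyp2f2, which activates naphthalene and is a periportal P450 at the far end of the cluster, ranged from 12.23 to 12.36 in controls and from 12.24 to 12.37 after sleep deprivation. Its log2 difference was 0.013 ± 0.032 (limma, adjusted p = 0.892), and its sign turned under several alternatives.

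Cyp2u1, which hydroxylates arachidonic acid and other long-chain fatty acids, fell as far as Cyp2a4. The probe set (17410400) read 8.50, 8.59 and 8.72 in controls (lowest, median and highest) and 7.30, 7.76 and 8.26 in sleep-deprived mice, with no overlap. The controls were tightly grouped (SD 0.074) and the sleep-deprived mice were spread more widely (SD 0.35). The log2 difference was -0.88 ± 0.11, with an interval from -1.12 to -0.65, or 1.85-fold lower (limma, adjusted p = 3.09e-05). Cyp2r1, a vitamin D hydroxylase, differed by -0.23 ± 0.080 and did not pass (limma, adjusted p = 0.0898). It passed without control mouse 4 (adjusted p = 0.0236) and without sleep-deprived mouse 2 (adjusted p = 0.0435).

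**Figure D3:**
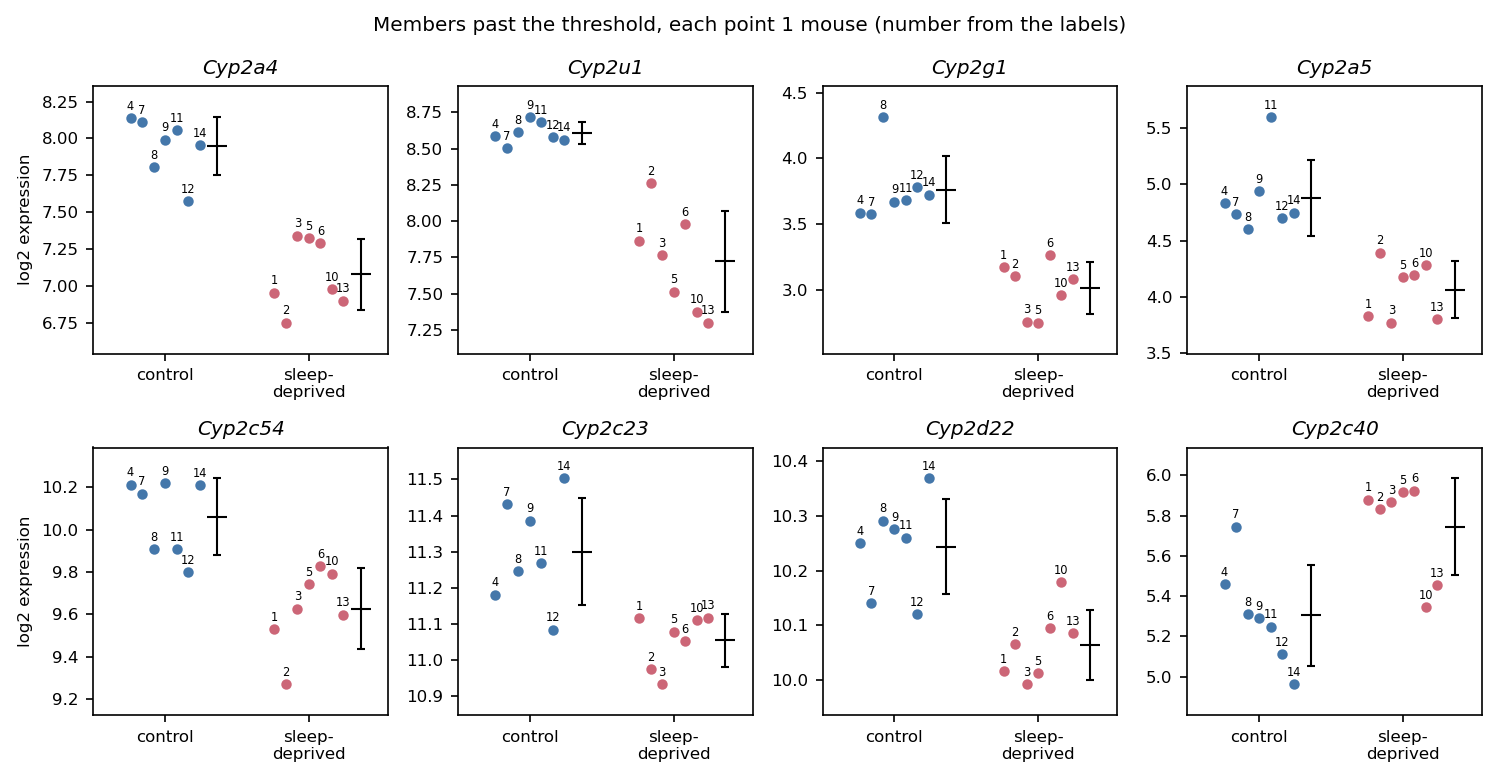
Log2 level (vertical axis) of the 8 members past the threshold in each mouse, controls beside sleep-deprived mice; each point is 1 numbered mouse, and the bars are the mean ± SD of 7. Cyp2a4, Cyp2a5, Cyp2g1 and Cyp2u1 show no overlap, and Cyp2c40 is the member with higher values after sleep deprivation.

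The 13 Cyp2c members, the enzymes that make epoxides from arachidonic and linoleic acid and hydroxylate steroids and bile acids, moved in both directions. Cyp2c54 and Cyp2c23 fell, Cyp2c40 rose, and 10 did not pass. The differences ran from -0.43 to 0.44 with a median of -0.028. In Cyp2c54 (probe set 17364452), known as a fatty acid epoxygenase, controls read 9.80, 10.17 and 10.22 (lowest, median, highest) and sleep-deprived mice 9.27, 9.63 and 9.83. All but 1 of the sleep-deprived mice were below the lowest control. The log2 difference was -0.43 ± 0.084, with an interval from -0.61 to -0.26, or 1.35-fold lower (limma, adjusted p = 0.00208).

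Cyp2c23, an arachidonic acid epoxygenase (probe set 17365001), ranged from 11.08 to 11.50 in controls with a median of 11.27. The sleep-deprived mice ranged from 10.93 to 11.12 with a median of 11.08, and 4 of the 7 lay below every control. Its log2 difference was -0.24 ± 0.056 (limma, adjusted p = 0.0078).

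Cyp2c40, known for hydroxylating arachidonic acid, was the member that rose. Its probe set (17364426) read 4.96, 5.29 and 5.75 in controls and 5.35, 5.87 and 5.92 after sleep deprivation (lowest, median and highest). Of the sleep-deprived mice 5 were above every control, while mice 10 and 13 lay inside the control range. The log2 difference was 0.44 ± 0.11, with an interval from 0.20 to 0.68 (limma, adjusted p = 0.0179). With the sample number as a covariate it was 0.26 and did not pass (limma, adjusted p = 0.0849). Most sleep-deprived mice carried the lower sample numbers, so number and group are partly confounded and this fit cannot fully separate them.

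Cyp2c40 stands between Cyp2c68 and Cyp2c69 on chromosome 19, and the promoters of these 3 genes are shown because they are close copies of one another. All are on the minus strand (RefSeq, GRCm38.p6): Cyp2c40 at chr19:39812815-39813064, Cyp2c69 at chr19:39886770-39887019 and Cyp2c68 at chr19:39741102-39741351. Capitals mark bases that differ within the aligned overlap, between Cyp2c40 and Cyp2c69 in their lines and from Cyp2c69 in the line of Cyp2c68.
Cyp2c40: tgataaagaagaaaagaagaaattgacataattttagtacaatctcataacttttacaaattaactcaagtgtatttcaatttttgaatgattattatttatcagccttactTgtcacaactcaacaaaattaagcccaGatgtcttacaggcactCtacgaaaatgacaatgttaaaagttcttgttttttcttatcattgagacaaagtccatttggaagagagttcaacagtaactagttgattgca
Cyp2c69: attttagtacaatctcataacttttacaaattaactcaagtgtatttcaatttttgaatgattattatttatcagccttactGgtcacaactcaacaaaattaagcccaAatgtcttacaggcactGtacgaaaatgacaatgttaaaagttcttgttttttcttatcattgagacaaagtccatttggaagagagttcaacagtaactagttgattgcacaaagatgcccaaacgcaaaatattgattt
Cyp2c68: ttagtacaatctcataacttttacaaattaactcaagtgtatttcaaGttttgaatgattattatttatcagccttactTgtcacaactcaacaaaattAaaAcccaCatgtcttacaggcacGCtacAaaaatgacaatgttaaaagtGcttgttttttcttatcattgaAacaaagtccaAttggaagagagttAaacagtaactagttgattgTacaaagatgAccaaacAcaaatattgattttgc
Cyp2c40 and Cyp2c69 were identical at 217 of 220 aligned bases (98.6%), Cyp2c40 and Cyp2c68 at 207 of 218, and Cyp2c68 and Cyp2c69 at 93.5%. The annotated start sites are offset from each other within the shared stretch.

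All 3 had a positive difference, and 1 of them was called. Cyp2c68 ranged from 8.55 to 9.02 in controls (median 8.68) and from 8.83 to 9.27 after sleep deprivation (median 8.95). The difference was 0.23 ± 0.079 (limma, adjusted p = 0.0801), and it passed without control mouse 14 (adjusted p = 0.0287) or over the brighter genes alone (adjusted p = 0.0479). Leaving out any other single mouse did not make it pass. Cyp2c69 ranged from 5.29 to 5.94 in controls (median 5.65) and from 5.35 to 6.26 after sleep deprivation (median 5.94), a difference of 0.18 ± 0.14 (limma, adjusted p = 0.565). Given the shared sequence, the 3 probe sets may not be independent readings of 3 genes.

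Cyp2c37, Cyp2c54 and Cyp2c50 follow one another along the cluster. Cyp2c37 and Cyp2c50 are printed as a contrast, since they are relatives of the Cyp2c54 enzyme whose start regions are less alike (86.3% identical). Both are on the plus strand, at chr19:39992174-39992423 and chr19:40089429-40089678 (RefSeq, GRCm38.p6), with differing bases in capitals.
Cyp2c37: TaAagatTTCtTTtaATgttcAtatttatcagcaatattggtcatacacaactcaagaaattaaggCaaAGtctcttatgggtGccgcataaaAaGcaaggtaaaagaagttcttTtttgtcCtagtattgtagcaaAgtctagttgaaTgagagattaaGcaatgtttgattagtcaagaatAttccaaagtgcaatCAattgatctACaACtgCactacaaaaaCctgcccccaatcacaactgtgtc
Cyp2c50: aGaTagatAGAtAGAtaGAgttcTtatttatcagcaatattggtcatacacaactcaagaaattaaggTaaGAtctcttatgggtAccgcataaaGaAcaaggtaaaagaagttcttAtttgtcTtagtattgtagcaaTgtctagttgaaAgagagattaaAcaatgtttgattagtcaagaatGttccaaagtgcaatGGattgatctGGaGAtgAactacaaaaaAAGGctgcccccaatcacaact
Cyp2c37 overlapped between groups (9.85 to 10.79 in controls, 10.01 to 10.52 after sleep deprivation) and differed by -0.028 ± 0.12 (limma, adjusted p = 0.944). Cyp2c50 read 9.10, 9.72 and 10.06 in controls and 9.10, 9.22 and 9.52 in sleep-deprived mice (lowest, median, highest). Its difference was -0.32 ± 0.12 (limma, adjusted p = 0.110). With control mouse 12 left out it was -0.40 and passed (limma, adjusted p = 0.0228), and it did not pass without any other single mouse.

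Cyp2c70 makes muricholic acids, the bile acids particular to rodents. It ranged from 11.48 to 11.81 in controls (median 11.59) and from 11.51 to 12.14 after sleep deprivation (median 11.88), and 6 of 7 sleep-deprived mice were above the control mean. The difference was 0.24 ± 0.079 (limma, adjusted p = 0.0653). It passed without sleep-deprived mouse 10 (adjusted p = 0.00832), without control mouse 8 (adjusted p = 0.0426) and over the brighter genes alone (adjusted p = 0.0417). Cyp2c29, a well-known target of CAR, ranged from 11.53 to 12.03 in controls and from 11.31 to 12.00 after sleep deprivation (-0.030 ± 0.092; limma, adjusted p = 0.918). Cyp2c38 had wide ranges in both groups (5.86 to 7.57 in controls, 5.25 to 7.85 after sleep deprivation), and its difference of -0.28 ± 0.30 is not resolved at this spread.

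The 9 Cyp2d members include the mouse relatives of the human enzyme that oxidises debrisoquine and many psychoactive drugs. They differed by -0.18 to 0.13, and Cyp2d22 (probe set 17319625) was the member that passed. Its controls read 10.12, 10.26 and 10.37 (lowest, median, highest) and its sleep-deprived mice 9.99, 10.07 and 10.18, with 6 of 7 below the lowest control. The log2 difference was -0.18 ± 0.044, or 1.13-fold lower (limma, adjusted p = 0.0128). This call was lost without the intensity trend (adjusted p = 0.0532) and with the sample number as a covariate (adjusted p = 0.0590). Cyp2d9, a male-specific testosterone hydroxylase set by growth hormone pulses, ranged from 10.15 to 10.60 in controls and from 10.15 to 10.36 after sleep deprivation (-0.10 ± 0.057; limma, adjusted p = 0.376). Cyp2d9 minus Cyp2d22 differed by 0.079 ± 0.047 between groups (exact permutation p = 0.112, adjusted p = 0.336), so the fall of Cyp2d22 was not shown to exceed that of Cyp2d9.

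Among the receptor-inducible and the constitutive enzymes of family 1 and of Cyp2e, no member passed. Cyp1a1, the classical AHR target, was dim, at 2.49 to 3.08 in controls and 2.49 to 3.05 after sleep deprivation (-0.010 ± 0.11, interval from -0.23 to 0.21). Cyp1a2, which oxidises caffeine and theophylline, read 11.01, 11.34 and 11.45 in controls and 11.03, 11.18 and 11.26 after sleep deprivation (lowest, median, highest). Control mouse 12 was the lowest of all 14. The difference was -0.14 ± 0.054, with an interval from -0.25 to -0.023 (limma, adjusted p = 0.145), and -0.19 without mouse 12 (adjusted p = 0.0066). Without any other single mouse it did not pass.

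Cyp2e1, the ethanol- and acetaminophen-oxidising enzyme of the central-vein zone, varied little between mice. It ranged from 12.91 to 13.08 in controls and from 12.89 to 13.00 after sleep deprivation. The difference was -0.036 ± 0.029, with an interval from -0.097 to 0.025 (limma, adjusted p = 0.586). A fall in the signal of this probe set by more than 0.097 lies outside the interval. It was the brightest probe set of the members, and compression at the top of the array's range was not measured. Cyp2e1 minus Cyp1a2 differed by 0.10 ± 0.054 between the groups (exact permutation p = 0.0874, adjusted p = 0.336). Without control mouse 12 it was 0.14 and passed (exact permutation, adjusted p = 0.0315).

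None of the 7 Cyp3a members, the broad drug and steroid oxidases that PXR induces, passed the test, and their differences ran from -0.30 to 0.060. Of the 7, 4 were brighter and the others were dim, which limits what could be seen in them. Cyp3a11, the principal inducible form, read 8.11, 8.47 and 8.80 in controls and 7.99, 8.44 and 9.14 after sleep deprivation (lowest, median and highest). The ranges overlapped fully and the difference was 0.060 ± 0.14, with an interval from -0.22 to 0.34 (limma, adjusted p = 0.883). Cyp3a25 had the widest spread of any member in controls (SD 0.84), from 6.80 to 8.86, against 6.72 to 7.92 after sleep deprivation (-0.27 ± 0.28; limma, adjusted p = 0.685). Cyp3a59, whose promoter is 95.6% identical to that of Cyp3a25, differed by -0.30 ± 0.18 (limma, adjusted p = 0.410). Cyp3a13 differed by -0.047 ± 0.083 (limma, adjusted p = 0.843).

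The 7 Cyp2j members, epoxygenases of arachidonic acid, had no call and differences from -0.12 to 0.012. Of the 7, 3 were brighter and the others were dim, which limits what could be seen in them. Cyp2j5, the bright liver and kidney form, varied little between mice. It ranged from 11.53 to 11.63 in controls and from 11.56 to 11.65 after sleep deprivation, with a difference of 0.012 ± 0.030 (interval from -0.051 to 0.075; limma, adjusted p = 0.897). The dim members outside the liver's usual set, Cyp1b1, Cyp2b19, Cyp2b23, Cyp2s1, Cyp2t4 and Cyp2w1, differed by -0.17 to 0.11 and none was called.

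**Figure D4:**
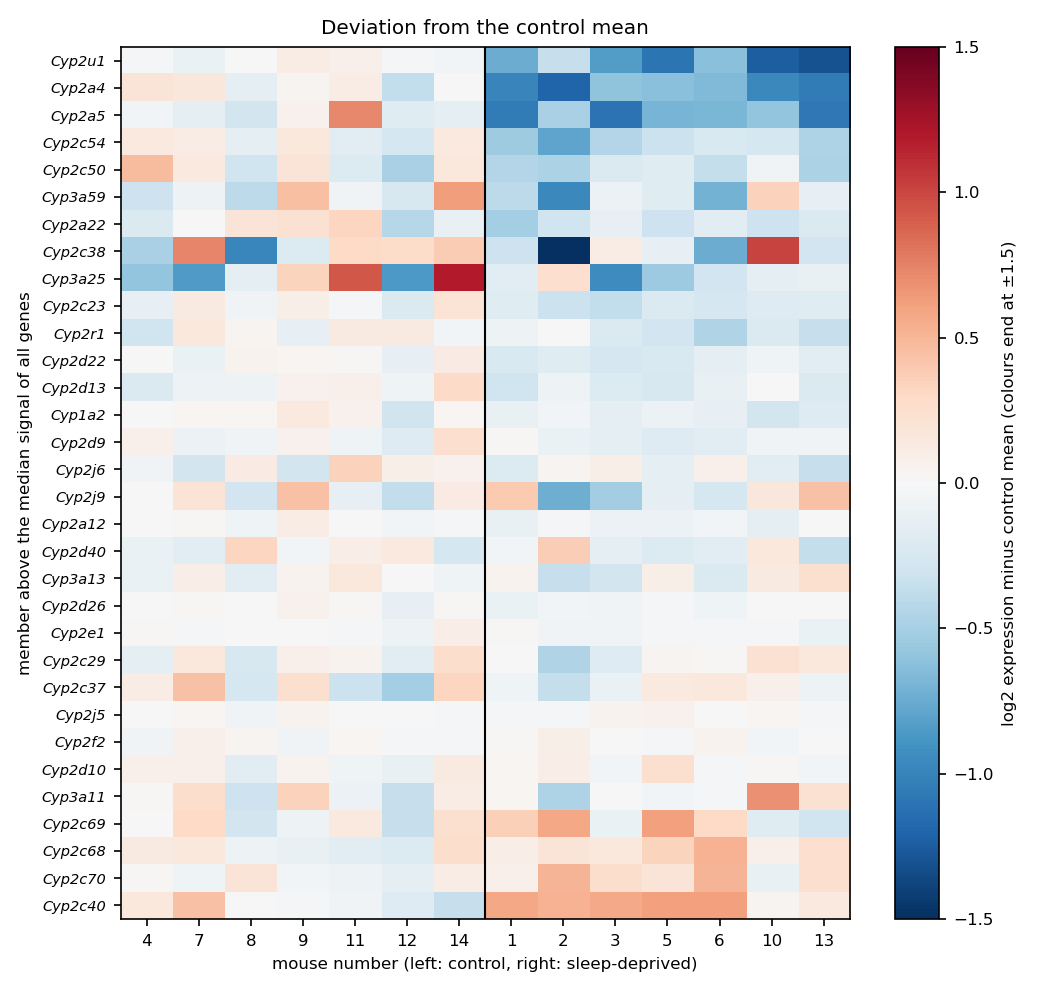
Deviation of the log2 level from the control mean (colour scale, ending at ±1.5) for the 32 brighter members (vertical axis) in each of the 14 mice (horizontal axis, by group). Cyp2a4, Cyp2a5 and Cyp2u1 are low across the 7 sleep-deprived mice, and control mouse 12 is below the control mean for 27 of the 32 members.

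In single mice, the median deviation of the 32 brighter members from the control mean lay between -0.139 and -0.047 in the 7 sleep-deprived mice. In the controls, each set here and below against the mean of the other controls, it reached from -0.200 to 0.129. Control mouse 12 was lowest of all 14, with 27 of 32 members below the control mean, and control mouse 8 stood at -0.080. The small shift of the brighter members as a group therefore overlapped between the groups. Over the 7 members that fell, the median deviation was -0.680 to -0.488 in sleep-deprived mice and -0.212 to 0.073 in controls, as a description of genes chosen by that difference.

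The genes that control or serve these enzymes were described by lists, whose counts follow from the same fit. Over all genes 3.88% were higher and 4.62% lower, and over the brighter genes 7.33% and 8.71%. Counts in these lists, and in the marker lists below, are to be read beside those shares. In lists this small, 1 call says nothing about the list as a whole. Of 21 measured xenobiotic receptors and partners, 1 was higher and 3 were lower, with a median of 0.016. The chaperone gene Hsp90aa1, whose product holds AHR and CAR in the cytoplasm, rose by 0.42 ± 0.076 (limma, adjusted p = 0.000972). Ahr itself fell by 0.37 (difference -0.37 ± 0.093; limma, adjusted p = 0.0146), and Nr3c1, the glucocorticoid receptor gene, differed by -0.22 ± 0.055 (limma, adjusted p = 0.0136). Nr1i3, which encodes CAR, was lower at -0.39 ± 0.11 (limma, adjusted p = 0.0304), a call that 5 of the 14 leave-one-out fits kept. Without mouse 1, 2, 3, 4, 6, 9, 11, 13 or 14 its adjusted p lay between 0.0532 and 0.0682. Nr1i2, which encodes PXR, differed by 0.14 ± 0.058 and did not pass (limma, adjusted p = 0.162), except without sleep-deprived mouse 2 (adjusted p = 0.0277).

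Of 18 clock, PAR bZIP and growth hormone regulators, 3 were higher and 7 lower, with a median of -0.15. Dbp, a PAR bZIP factor of the clock output, was at -0.91 ± 0.14 (limma, adjusted p = 0.000297), and Ghr, the growth hormone receptor gene, at -0.43 ± 0.052 (limma, adjusted p = 2.27e-05). Bcl6, a repressor of growth hormone-responsive genes, was lower by -1.24 ± 0.24 (limma, adjusted p = 0.00197), and Socs2, a growth hormone target, was higher by 0.73 ± 0.15 (limma, adjusted p = 0.00265).

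In the list of electron supply, heme synthesis and heme breakdown, 6 of 18 measured genes were lower and 0 higher, with a median of -0.15. Over the brighter genes, 8.71% were lower and 7.33% higher. The lower ones were the heme synthesis genes Alad (-0.44 ± 0.056; limma, adjusted p = 3.71e-05) and Ppox, the electron carriers Fdx1 (-0.49 ± 0.077; limma, adjusted p = 0.000275), Cyb5a and Cyb5b, and Pgrmc1, which binds P450 enzymes. No heme breakdown gene of the list (Hmox1, Hmox2, Blvra, Blvrb) passed, and Cpox, another step of heme synthesis, differed by 0.16 ± 0.052 (limma, adjusted p = 0.0743). Fdx1 serves mitochondrial P450 enzymes rather than these families. The gene of P450 reductase (Por) was not among the genes measured, so the list does not cover it. Alas1, the rate-limiting step of heme synthesis, differed by -0.051 ± 0.078 (limma, adjusted p = 0.815).

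**Figure D5:**
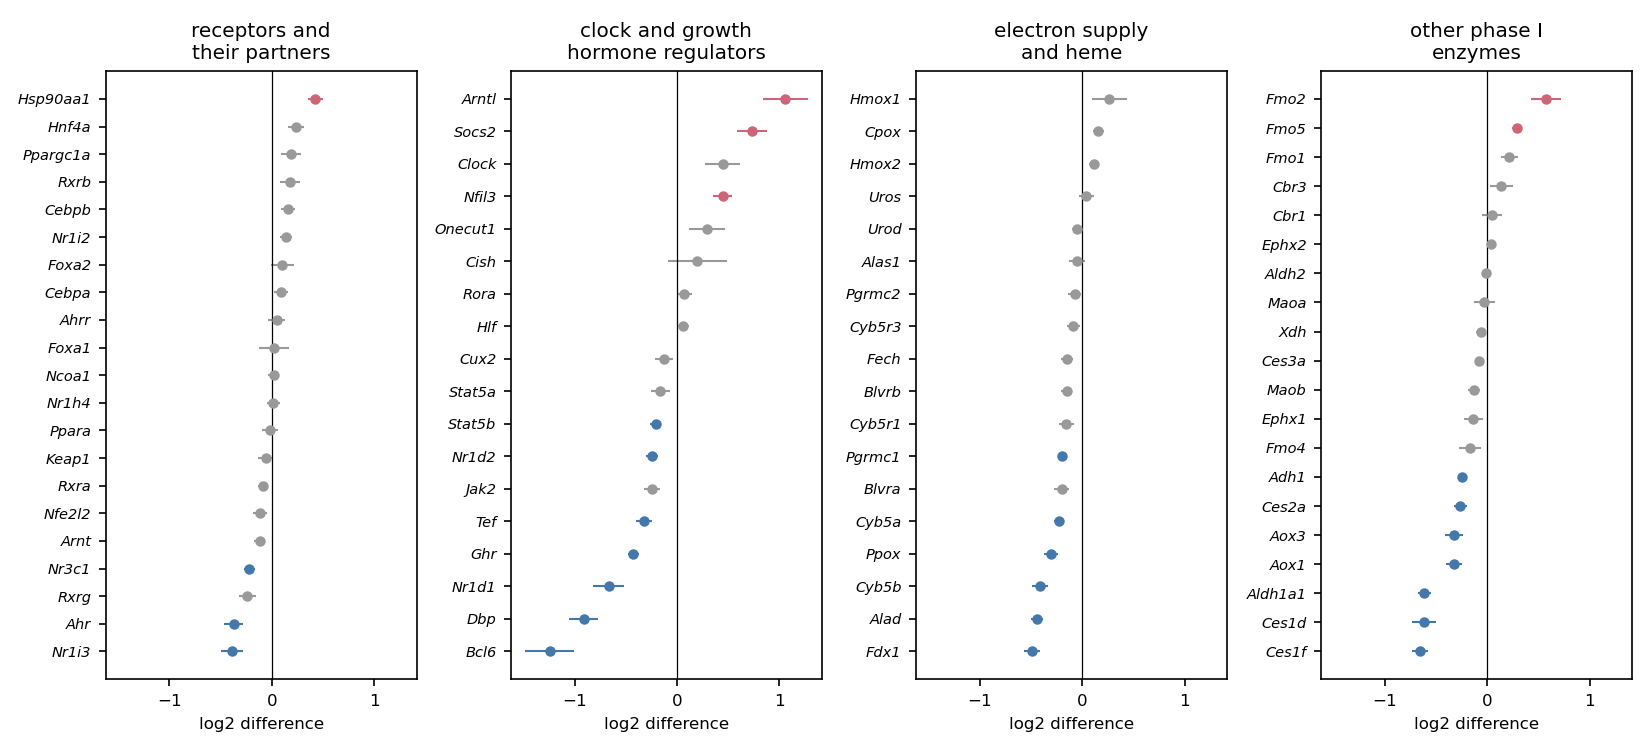
Log2 difference, sleep-deprived minus control, ± moderated SE (horizontal axis) for measured receptors, clock and growth hormone regulators, genes of electron supply and heme, and other phase I enzymes (vertical axis); red marks higher and blue lower at adjusted p under 0.05. Dbp, Ghr, Ahr, Alad and Fdx1 lie below 0, Hsp90aa1 and Socs2 above it, and Alas1 near 0.

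Other oxidising enzymes and P450 families are given for comparison. Among 20 phase I enzymes outside the P450 families, 2 were higher and 7 lower, with a median of -0.10. They included the aldehyde dehydrogenase Aldh1a1 at -0.61 ± 0.066 (limma, adjusted p = 5.35e-06) and the carboxylesterase Ces1f at -0.66 ± 0.075 (limma, adjusted p = 1.02e-05). Of 28 listed P450 genes of families 4 and above, 4 were higher and 1 lower, with a median of 0.0045. Cyp17a1, a steroid hydroxylase and lyase, rose by 1.69 ± 0.17 without overlap (limma, adjusted p = 2.6e-06). The omega-hydroxylase gene Cyp4a14 rose by 2.91 ± 0.62 (limma, adjusted p = 0.00439), with 6 of 7 sleep-deprived mice above every control. Cyp39a1, an oxysterol hydroxylase, rose by 1.04 ± 0.16 (limma, adjusted p = 0.000294), and Cyp7a1, which starts the conversion of cholesterol to bile acids, was at -0.60 ± 0.15 (limma, adjusted p = 0.0148). Whether the families differed from one another was not tested.

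Markers of the central-vein zone and of other liver cells were read beside these values. Of 9 pericentral markers outside the P450 genes, 0 were higher and 2 lower (Lgr5 at -1.05 ± 0.14 and Lect2 at -0.44 ± 0.059), while Glul, the defining one, differed by 0.077 ± 0.036 (limma, adjusted p = 0.233). The log2 of their summed signal ranged from 12.90 to 13.08 in controls and from 12.83 to 13.02 after sleep deprivation. The sums that follow are given in the same way. Endothelial markers were higher for 3 of 8 genes, Lyve1 among them at 1.13 ± 0.18, with sums from 10.42 to 10.77 and from 10.59 to 10.98. The other 5 endothelial markers, the defining Stab1 and Stab2 among them, did not pass. Differences of the 8 ran from -0.18 to 1.13. Kupffer cell markers were higher for 1 of 8 (Cd163, 0.88 ± 0.14), with sums from 8.92 to 10.05 and from 9.17 to 9.91. Lymphocyte markers were lower for 1 of 8 (Cd79a, a dim gene), stellate cell markers higher for 1 of 8 (Rgs5) and cholangiocyte markers higher for 1 of 5 (Sox9). Of 8 periportal markers, 2 were higher (Pck1 and Cps1) and 1 lower (Hal), and of 9 hepatocyte markers 2 were higher (Apoa1 and Cps1). Several of these calls were lost under other settings: of 16 alternatives, Pck1 and Cps1 each failed in 11, Rgs5 in 9, Sox9 in 7, and Apoa1 and the endothelial marker Pecam1 each in 6. The defining Kupffer markers Clec4f, Adgre1 and Cd68 did not pass. Nor did the defining markers of lymphocytes (Ptprc, Cd3e, Cd3g), stellate cells (Reln, Lrat, Des) or cholangiocytes (Krt19, Krt7, Epcam). The part of cell composition in the P450 differences was not tested.

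RefSeq promoter windows of 300 bases (250 before and 50 after the start site) were found for 45 of the 53 members and searched on both strands. Among the called members, Cyp2a4, Cyp2a5 and Cyp2c40 had a window. The called members Cyp2c23, Cyp2c54, Cyp2d22, Cyp2g1 and Cyp2u1 had none, so the counts below do not cover them. The E-box CACGTG, a clock factor motif, was in 1 of the 45 (Cyp2j6) and in 7.15% of all 32851 windows. The PAR bZIP motifs TTACGTAA and TTATGTAA were in 0 of the 45, and in 0.119% and 0.938% of all. At shares this low, 0 of 45 cannot be told from the share of all. The AHR core GCGTG was in 8 members (17.8%) and 32.4% of all, and the nuclear receptor motif AGGTCA was in 16 (35.6%) and 16.3% of all. A match is a description of letters only. A member counted if any of its windows matched, whereas the share of all is per window, so the percentages are not strictly alike. In Cyp2a4 and Cyp2a5, AGGTCA lay after the start site. Among the members, 15 promoter pairs were at least 80% identical, so members of a subfamily are not independent of each other in these counts.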

How the data were processed

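Liver RNA, 100 ng per sample, was labelled with biotin by an Affymetrix whole-transcript kit, per the labels' protocols, and hybridised to 14 arrays. The authors deposited log2 values for every probe set, made by RMA per the submitters' processing notes. The sources used here give no version, annotation or filter. RMA can compress differences near background, which was not measured here. Whether the brightest probe sets were near the upper end of the array's range was not measured either. Array medians lay between 3.44 and 3.49, and 7 arrays per group limit the precision.

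The platform's annotation named the 41345 probe sets, and Entrez gene IDs served to check the symbols: 23521 had 1 symbol, 1814 had several and 16010 had none there. The brightest probe set of each gene gave 22180 genes, with no filter. Sleep-deprived minus control was fitted in R 4.3.3 with lmFit and trended eBayes of limma 3.58.1 (two-sided, Benjamini-Hochberg over all genes, threshold 0.05), and other values were computed in Python 3.11.15. On simulated data with 22180 genes, these steps found 85% of the 100 genes shifted by 0.5 and 100% of the 100 shifted by 1. False calls numbered 12, or 6.09% of those made. Promoters are RefSeq's, aligned with Biopython 1.88. No proteins were used here.

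The members, lists and pairs were chosen with earlier results of these data known. Values by mouse were given for members past the threshold and for a set of core members, and from each list up to 4 called genes with the smallest adjusted p, plus Ahr, Nr1i2, Nr1i3, Alas1, Cyp2b10 and Dbp. Other marker genes were named as defining ones. Lists were described by counts and medians, without a test. Cyp probe sets with several symbols (3) were left out. Alternatives were other eBayes settings, array weights, brighter genes alone, probe sets averaged or tested singly, centring, renewed quantile normalization, a log2 threshold of 0.5, the sample number as a covariate and omission of each mouse.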

Additional observations from a re-analysis of the deposited data

Results flagged for a closer look

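In 134 groups of 7 values, 8 had an end value whose gap to the next mouse was large for the group's range, where chance alone gives about 1 group in 20. Among the members, Cyp1a2 was lowest in control mouse 12, at a log2 level of 11.01 against 11.30 in the next control. Cyp2a5 was highest in control mouse 11, at 5.60 against 4.94. Cyp2g1 was highest in control mouse 8, at 4.32 against 3.78. Cyp2b19, a dim member, was highest in sleep-deprived mouse 3, at 2.55 against 2.20.

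Among the listed genes, Nr1i2, which encodes PXR, was lowest in sleep-deprived mouse 2, at 8.64 against 8.84 in the next mouse. In the same mouse Cyp4a14, a fatty acid omega-hydroxylase, was at 6.81 against 9.56. Nr3c1 was lowest in sleep-deprived mouse 3, at 7.43 against 7.68. Sox9, a cholangiocyte marker, was highest in sleep-deprived mouse 13, at 7.11 against 6.08.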

How the results depend on the processing

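All 8 called members, Cyp2c40 and Cyp2d22 included, kept their calls in all 14 fits that left out a mouse, in which 7 to 10 members were lower. Members called higher numbered 1 to 2 in those fits, 3 over the brighter genes and 0 with the sample number as a covariate. With a log2 difference of at least 0.5 as well, 4 were lower and 0 higher. Members without overlap numbered 4 to 7 in the fits that left out a mouse and 3 over the brighter genes, where Cyp2g1 is not tested. Over 31 named members, 673 of 709 alternative values kept direction and call, and 23 changed sign, all in members that were not called. With the sample number as a covariate, Cyp2c29 was at 0.086, Cyp2c38 at 0.0076 and Cyp3a13 at 0.039, and 2 receptor genes were higher. Cyp1a1 was at 0.0070 with array weights. Cyp2f2 was at -0.0019 with its probe sets averaged and at -0.0033 after renewed quantile normalization, where Cyp2j5 was at -0.0086. Leaving out a mouse gave Cyp1a1 from -0.066 to 0.049, Cyp2c29 from -0.074 to 0.041, Cyp2c37 from -0.11 to 0.044, Cyp2f2 from -0.00019 to 0.026, Cyp3a11 from -0.045 to 0.15, Cyp3a13 from -0.094 to 0.0033 and Alas1 from -0.090 to 0.0018. The pair Cyp2a5 minus Cyp2a4 ranged from -0.052 to 0.16, and Cyp2e1 minus Cyp1a2 from 0.075 to 0.14. Higher genes numbered 1 to 3 among receptors and 0 to 1 in electron supply and heme, and lower genes 1 to 2 in families 4 and above. The cause was not tested. No paired analysis was possible because the labels give no pairing of mice. Dim members, with signal near background, limit what could be seen in 21 of 53 genes.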

Other observations

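Cytochrome P450 probe sets that carried several gene symbols could not be assigned to 1 member. The probe set shared by Cyp2c67 and Cyp2c68 differed by 0.12 between sleep-deprived and control mice, and those shared by Cyp3a41, Cyp3a11 and Cyp3a44 by 0.042 and 0.041. Of the P450 genes that are not members, Cyp2b9, a female-biased gene, ranged from 3.04 to 4.17 in controls and from 2.26 to 3.77 after sleep deprivation (-0.58 ± 0.20; limma, adjusted p = 0.0818).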
